A study of Mus musculus with 12 samples.

Results

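The genes described here encode the proteins of the cytosolic ribosome, and were taken by their symbols: every name with Rpl or Rps followed by a digit, plus Rplp0, Rplp1, Rplp2 and Rpsa, leaving out the S6 kinases (Rps6k) and names with -ps. The rule found 92 of the 45808 genes of the bulk table and 86 of the 31055 genes of the single-cell matrices. Of these, 77 encode standard proteins of the cytosolic ribosome, 46 in the large (60S) and 31 in the small (40S) subunit. The others are look-alikes by name, 15 in bulk and 9 in single cells: paralogs such as Rpl22l1, Rpl36al and Rps27l, copies such as Rps27rt, the pseudogene Rps3a3, and Rps19bp1, a nucleolar protein that binds Rps19 and is no part of the ribosome. Fau and Rack1 (Gnb2l1 in the bulk table) also encode cytosolic ribosomal proteins, but their symbols lie outside the rule. Each dataset left a few genes untested for low counts. In single cells, 83 genes were tested, and Rpl10l, Rpl39l and Rpl3l had 5, 4 and 5 molecules over all cells. In bulk, 88 were tested, and Rpl10l, Rpl39l, Rps12l1 and Rps12l2 had 0, 1, 6 and 3 reads over 8 libraries.

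The samples were pancreatic islet cells of adult mice of mixed background, 2 months of age. For single cells, islets of doxycycline-treated mice carrying Ppy-rtTA and R26-YFP (the study's methods add TetO-Cre) were sorted into YFP+ and YFP- cells, in 2 experiments, giving 4 droplet libraries. Ppy-rtTA is a knock-in that replaces the coding sequence of one Ppy allele, so these mice have a single working copy of Ppy, and YFP marks cells that used the Ppy regulatory elements while doxycycline was given (1 mg/ml in drinking water for 2 weeks, about a month before sorting). For bulk RNA-seq, YFP+ cells came from Ppy-rtTA;TetO-Cre;R26-YFP mice (γ, n = 5) and from Sst-Cre;R26-YFP mice (δ, n = 3), whose label is driven by Cre from the somatostatin gene. The labels give the doxycycline treatment for the δ samples too, although that line needs none. The 2 single-cell experiments used 3 and 4 mice, whose cells are not told apart in the libraries. The mice behind each bulk library are not given in the sources used here, so all p-values measure only the spread between these samples, which in bulk may be technical.

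A ribosome holds a single copy of almost every one of its proteins, so the genes are used in parallel, and their mRNAs are among the most abundant of any cell. Most of these mRNAs begin with a C and a run of pyrimidines, the terminal oligopyrimidine (TOP) tract, by which the mTOR pathway and Larp1 set how much of them is translated or stored. In islet endocrine cells, ribosomes on the rough endoplasmic reticulum make the hormone precursors, which take a large share of all mRNA.

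The start sites of the genes are shown first, to see how many windows hold the letters of such a tract. RefSeq promoter windows (GRCm38.p6) matched 67 of the 92 genes. A C at the annotated start followed by 4 bases that are C or T was found at 14 of these 67 (20.9%), against 813 of all 27025 genes with a window (3.01%). A run of at least 8 C or T between 10 bases before and 15 bases from the start was found at 23 (34.33%), against 2986 of all genes (11.05%). Both searches read the strand of the gene only and overlap each other. Among the standard genes the longer run was present at 22 of 57, and among the look-alikes at 1 of 10. Annotated starts can lie a few bases from the main start, and a window without these letters says nothing of the mRNA made. Each line below holds 10 bases before and 15 bases from the start, 5′ to 3′ on the strand of the gene, with its longest run of C and T in capitals. The first 4 are genes whose levels are given below, and the last 2 are look-alikes whose levels are set beside those of their partners Rpl36a and Rps27.
Rplp2, chr7:141447641-141447665 (+): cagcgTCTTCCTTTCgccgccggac
Rps27, chr3:90213634-90213658 (-): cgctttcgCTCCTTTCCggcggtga
Rpl13a, chr7:45128731-45128755 (-): cctgcgacaagaCCTCCTCCTTTCC
Rps24, first of 2 starts, chr14:24490668-24490692 (+): gctggggTCCTTCCTTgcgcgttga
Rpl36al, chr12:69184053-69184077 (-): ccgtcgctcaggttcagTTCCgact
Rps27l, first of 2 starts, chr9:66946076-66946100 (+): CCTCCCCgccgcctctatcccggaa
The run holds 9 to 13 bases in the first 4, and 4 and 7 bases in Rpl36al and Rps27l. All of the first 4 hold a run of at least 8, which 22 of 57 standard genes did, so they do not stand for the rest. Rpl36a, the partner of Rpl36al, matched neither search, and the look-alike with the longer run was Rpl22l1, not shown. It spans the annotated start in Rplp2, Rps27 and Rps24, begins after it in Rpl13a and Rpl36al, and ends before it in Rps27l. Of the 6 windows, those of Rplp2 and Rps27 hold the C at the start followed by 4 bases of C or T.

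The 4 single-cell libraries held 1300 to 1689 cells and 10683494 to 18330975 molecules (UMIs, unique molecular identifiers, each counted once), with medians of 4237 to 8338 UMIs per cell. After removal of doublets and of non-endocrine clusters, 3972 cells fell into 7 hormone classes by the levels of Ppy, Gcg, Ins2 and Sst: 4 with 1 hormone gene and 3 with Ppy and another. Cells with 1 hormone gene also had to lie in a cluster high for that hormone. Cells with Ppy and another were taken from any endocrine cluster, while the paper excluded bihormonal cells that lay in monohormonal clusters. The classes carried their markers. The α-cell genes Ttr and Irx2 were highest in Gcg+ cells, the β-cell gene Mafa in Ins2+ cells, and the δ-cell gene Hhex in Sst+ cells, where it reached 197 and 266 CPM against at most 1.74 in the other monohormonal classes. A barcode was shared by 2 libraries in 18 cases and by 3 libraries in 1 case. Of the 4395 endocrine cells kept, 301 lay within 0.5 (natural log) of a hormone threshold. Almost all Ppy+ cells were in the YFP+ libraries (629 of 630 and 747 of 753), and all Gcg+ and Sst+ cells were in the YFP- libraries, so in the comparisons of Ppy+ with Gcg+, Ins2+ or Sst+ cells the class goes with the sorted library.

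Ribosomal protein mRNAs took a share of the transcriptome that differed more than 4-fold between the hormone classes. In Gcg+ cells, the α-like class, they made up 17.99% of all UMIs in experiment 1 and 19.1% in experiment 2 (18.6% ± 0.796, SD, n = 2 experiments). In Ins2+ cells, the β-like class, the shares were 3.91% and 4.32% (4.12% ± 0.289). In Ppy+ cells, the γ-like class, they were 8.81% and 9.18% (8.998% ± 0.261), between these classes. Sst+ cells, the δ-like class, had 13.3% and 15.9% (14.6% ± 1.88). The bihormonal classes lay between or near the matching monohormonal ones, with 14.6% and 14.8% in Ppy+Gcg+ cells (14.7% ± 0.106), 12.8% and 12.8% in Ppy+Sst+ cells (12.8% ± 0.0194), and 6.71% and 7.63% in Ppy+Ins2+ cells (7.17% ± 0.651). The classes did not overlap between experiments, except that Ppy+Gcg+ lay inside the range of Sst+ and that Ppy+Sst+, below Sst+ in each experiment, was below its lowest value by less than the spread of that class. Shares rested on 363398 to 10252828 UMIs per class and experiment. Counting error was therefore small, and 95% Wilson intervals such as 15.80 to 16.04% for Sst+ cells of experiment 2 cover counting error only. These shares are descriptions, and no test was run on them.

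The hormone genes moved with these shares. The 7 hormone genes together took 23.0 to 74.9% of the UMIs of a class, so the share left for all other genes together was lower where they were high. Over the UMIs of all other genes, ribosomal protein genes took 28.01% ± 1.14 in Gcg+, 25.3% ± 0.633 in Ppy+Gcg+, 20.02% ± 0.688 in Ppy+Sst+, 19.9% ± 1.11 in Sst+, 19.1% ± 0.844 in Ppy+, 16.8% ± 0.876 in Ppy+Ins2+ and 15.1% ± 0.729 in Ins2+ cells. On this scale Gcg+ and Ppy+Gcg+ cells stood above all other classes in both experiments, while the ranges of Sst+, Ppy+Sst+ and Ppy+ overlapped, with Ppy+ the lowest of these in each experiment. Within the Ppy+ cells of experiment 1, split by depth into 3 equal groups, the share of all UMIs was 10.4%, 8.65% and 8.28% from shallow to deep, and the hormone genes took 42.8%, 52.4% and 56.1%. The share outside the hormone genes was 18.2%, 18.2% and 18.9% in the same groups. Ppy+Gcg+ and Ppy+Sst+ cells were found on both sides of the sort. In the YFP+ libraries (327 and 311 cells) Ppy+Gcg+ cells had 24.6% and 25.6% outside the hormone genes, against 18.5% and 19.7% in Ppy+ cells of the same libraries. In the YFP- libraries (49 and 37 cells) they had 26.9% and 27.4%, against 27.2% and 28.8% in Gcg+ cells. Ppy+Gcg+ cells thus stood above Ppy+ cells within the YFP+ libraries in both experiments. Ppy+Sst+ cells had 20.3% and 20.3% in the YFP+ libraries (100 and 154 cells), above Ppy+ cells there. In the YFP- libraries (80 and 59 cells) they had 18.2% and 21.3%, against 19.1% and 20.7% in Sst+ cells, with no common order.

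**Figure D1:**
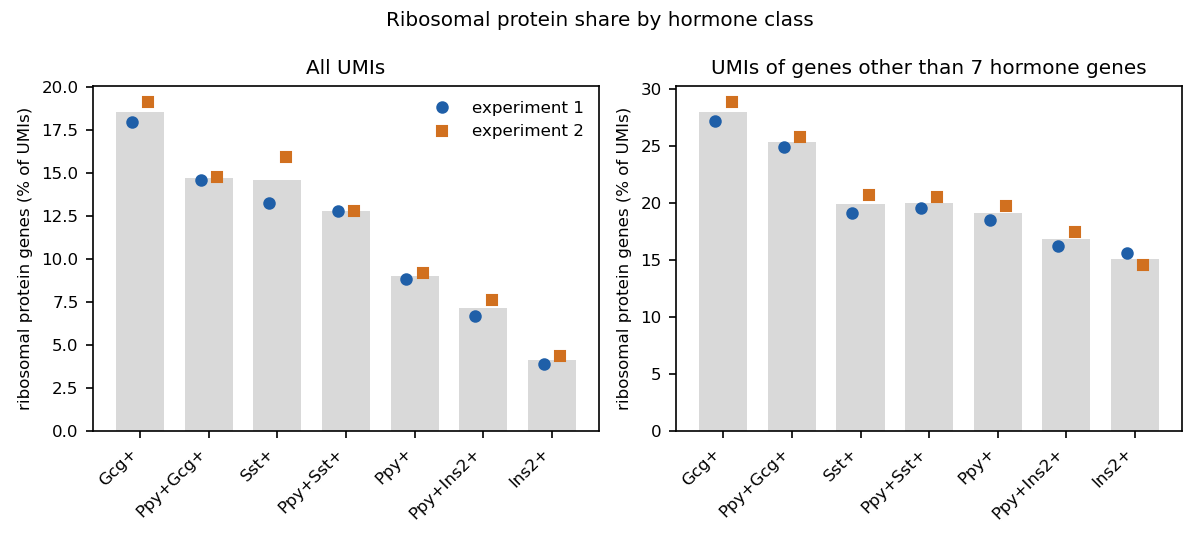
Share of UMIs from the 86 ribosomal protein genes in each hormone class, over all UMIs (left) and over UMIs of genes other than the 7 hormone genes (right), both in percent. Points are the 2 experiments and bars their mean: Gcg+ is highest and Ins2+ lowest in both panels, at 18.6% and 4.12% on the left and at 28.01% and 15.1% on the right.

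Gene by gene, the comparison of γ-like with α-like cells asked which ribosomal protein genes carried this difference. UMIs were summed per class and experiment, and each gene was tested with edgeR's quasi-likelihood test with the experiment as a block over the 10055 genes that passed the count filter, scaled by TMM (trimmed mean of M-values), which sets the typical gene to no change. All 14 sums of the 7 classes were fitted together and shared an estimate of the spread, which also drew on the other genes tested. With 1 sum per class and experiment, the classes of a comparison alone leave almost no degrees of freedom. The SE and p of a comparison thus do not measure the spread of its own classes. A gene was called when it differed by more than 0.5 on the natural-log scale (0.72 in log2) with an adjusted p no greater than 0.05, and calls by adjusted p alone are given as a second rule. In Ppy+ against Gcg+ cells, 33 of 83 ribosomal protein genes were lower under both thresholds, where 6.69% of all genes tested were called lower. By adjusted p alone 77 of 83 were lower, against 9.94% of all genes, and at an unadjusted p under 0.05 79 were lower and 0 higher. Their median log2 fold change was -0.66, against -0.018 over all genes, with -0.69 in experiment 1 and -0.64 in experiment 2. Of the 83, 79 were lower in both experiments.

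Against β-like cells the direction was the opposite. In Ppy+ against Ins2+ cells, 25 were higher under both thresholds (12.3% of all genes) and 70 by adjusted p alone (18.4% of all genes), with a median log2 fold change of 0.58 and experiment medians of 0.49 and 0.68. Against δ-like cells little passed. In Ppy+ against Sst+ cells edgeR called 0 under both thresholds (5.35% of all genes were called higher) and 11 higher by adjusted p alone (6.80%), the median was 0.16, and 21 were higher and 2 lower at an unadjusted p under 0.05. DESeq2 called 0 and 9 in the same comparison.

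Between the other monohormonal classes, Gcg+ cells stood above both. In Gcg+ against Ins2+ cells, 77 of 83 were higher under both thresholds (10.9% of all genes) and 79 by adjusted p alone (14.7%), with a median log2 fold change of 1.24. In Gcg+ against Sst+ cells, 56 were higher (5.65% of all genes) and 78 by adjusted p alone (6.80%), with a median of 0.80. In Ins2+ against Sst+ cells, 12 were lower (7.55% of all genes), and by adjusted p alone 48 were lower (8.83%) and 1, Rplp1, was higher (9.32%), with a median of -0.43. With each library as a block, fitted on sums per class and library, the counts under both thresholds were 34 in Ppy+ against Gcg+, 23 in Ppy+ against Ins2+ and 0 in Ppy+ against Sst+ cells. In that fit no library held sums of both sides of these comparisons. The sides were linked only through bihormonal classes found in both kinds of library, so the fit cannot tell class and library apart. The directions of the medians in the 6 comparisons of monohormonal classes were the same with DESeq2 size factors and with library sizes that left out the 7 hormone genes. In Ppy+ against Sst+ cells the share outside the hormone genes had the other order, with 18.5% and 19.7% against 19.1% and 20.7%. The direction of that comparison thus depended on the scale. When the sum of the ribosomal protein genes was itself used as library size, 0 to 5 genes were called under both thresholds in these 6 comparisons. The 6 comparisons share classes, so their values are not independent.

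**Figure D2:**
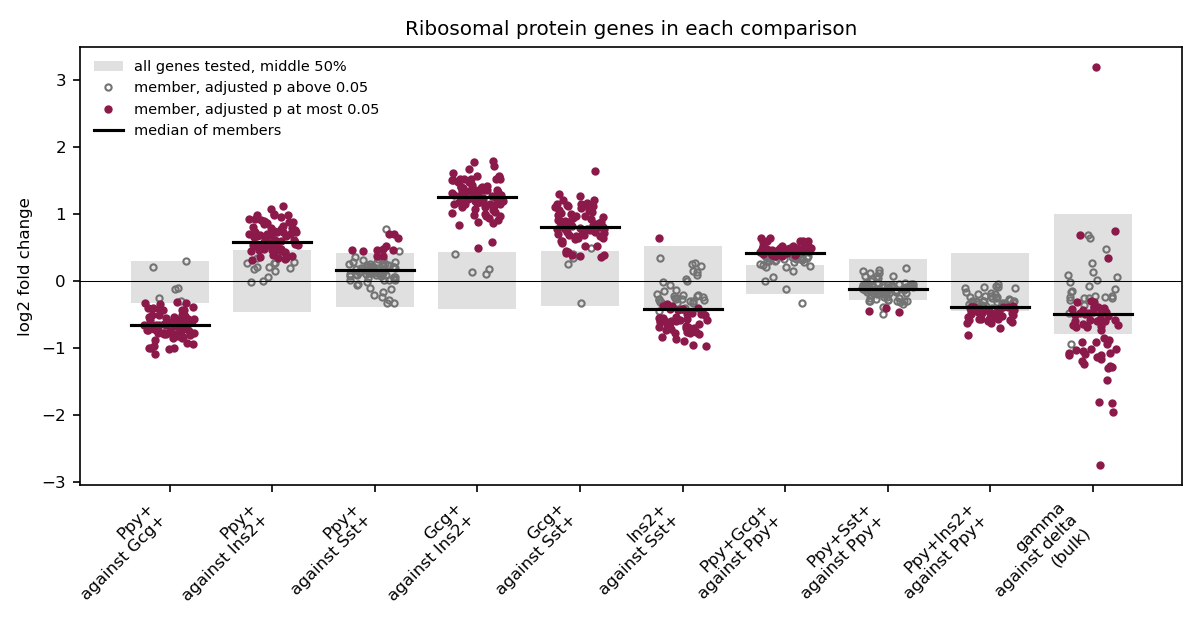
log2 fold change of each ribosomal protein gene in the 9 single-cell comparisons (83 genes) and in bulk (88 genes); each point is a gene, filled where adjusted p was at most 0.05, the line is their median and the grey band the range from the 25th to the 75th percentile of all genes tested. Of the points, 81 of 83 lie below 0 for Ppy+ against Gcg+ (median -0.66). The median is highest for Gcg+ against Ins2+ (1.24) and nearest to 0 in single cells for Ppy+Sst+ against Ppy+ (-0.13) and Ppy+ against Sst+ (0.16).

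Both subunits were represented. In Ppy+ against Gcg+ cells the median log2 fold change was -0.63 for the 46 large subunit genes and -0.73 for the 31 small subunit genes, in Ppy+ against Ins2+ cells 0.66 and 0.56, and in Gcg+ against Ins2+ cells 1.25 and 1.31. The difference between the subunits was not tested. Of the 77 standard genes, 75 were lower in Ppy+ than in Gcg+ cells by adjusted p, from -1.09 (Rpl5) to -0.26 (Rpl39) on the log2 scale over all 77. All 77 were higher in Gcg+ than in Ins2+ cells, from 0.48 (Rpl41) to 1.78 (Rps3a1).

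**Figure D3:**
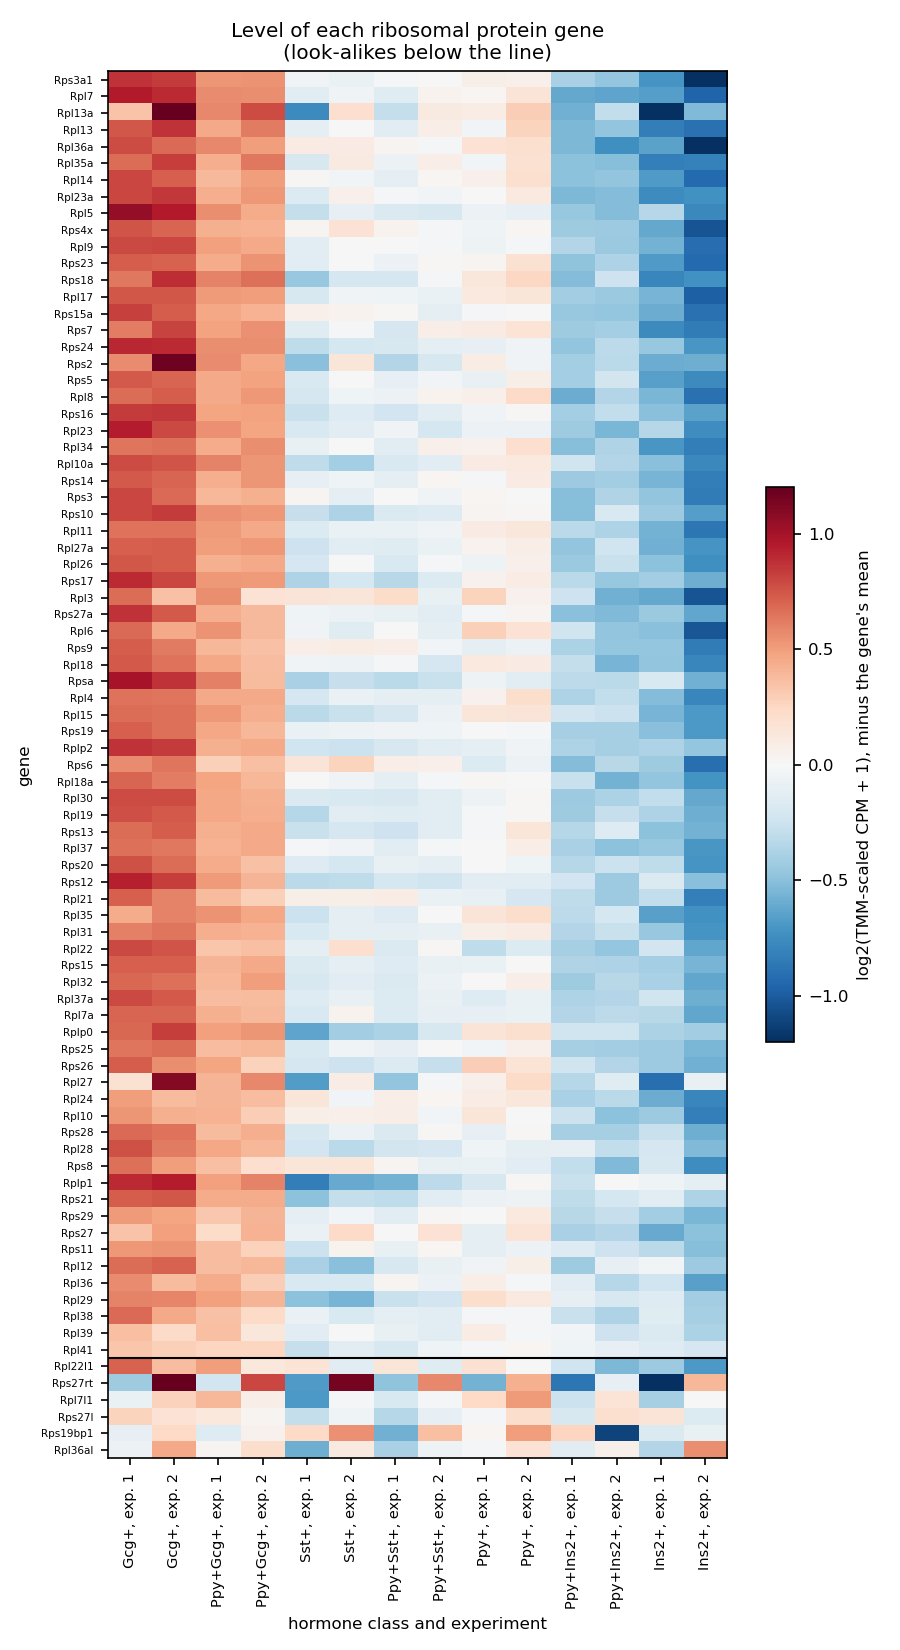
Level of each of the 83 tested genes (rows, with the 6 look-alikes below the line) in the 14 sums of class and experiment (columns), as log2 of TMM-scaled CPM plus 1 minus the mean of the gene, red above and blue below it. Nearly all standard genes are red in Gcg+ and Ppy+Gcg+ cells and blue in Ppy+Ins2+ and Ins2+ cells, while most look-alikes below the line vary in other ways and Rpl22l1 follows the standard genes.

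The stalk of the large subunit, built of Rplp0, Rplp1 and Rplp2, recruits the elongation factors. Rplp1 reached 2636 and 2716 TMM-scaled CPM in Gcg+ cells (experiments 1 and 2), 1368 and 1306 in Ins2+ cells, 1243 and 1430 in Ppy+ cells, and 799 and 930 in Sst+ cells. Its Gcg+ values were thus well above the rest, its Sst+ values below the rest, and Ppy+ and Ins2+ overlapped. Rplp1 was lower in Ppy+ than in Gcg+ cells by 1.01 ± 0.12 (log2, SE; edgeR, adjusted p = 2.28e-08) and higher in Gcg+ than in Sst+ cells by 1.64 ± 0.13 (adjusted p = 5.94e-13), while Ppy+ and Ins2+ cells differed by -0.01 ± 0.12 (adjusted p = 0.956). Rplp0, the anchor of the stalk, had 1643 and 1815 CPM in Gcg+, 1133 and 1165 in Ppy+, 784 and 760 in Ins2+, and 657 and 761 in Sst+ cells. It differed between Ppy+ and Sst+ cells by 0.70 ± 0.12 (edgeR, adjusted p = 4.25e-05), the largest change in that comparison among genes with an adjusted p at most 0.05. Rplp2 did not follow it there: its levels were 1324 and 1384 CPM in Ppy+ and 1207 and 1192 in Sst+ cells, and 2606 and 2550 in Gcg+ cells.

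Among small subunit genes, Rpsa, also known as the laminin receptor precursor, had 1617 and 1489 CPM in Gcg+ cells, 780 and 744 in Ppy+, 716 and 547 in Ins2+, and 622 and 672 in Sst+ cells. The Gcg+ values did not overlap any other class, and Ppy+ was lower than Gcg+ by 1.03 ± 0.12 (edgeR, adjusted p = 2.51e-08). Rps3a1 had the widest range of the standard genes between Gcg+ and Ins2+ cells, with 2865 and 2797 against 961 and 673 CPM, a log2 fold change of 1.78 ± 0.13 (edgeR, adjusted p = 6.18e-14). In Ppy+ cells it was at 1650 and 1639, and in Sst+ cells at 1519 and 1487. Rps6, the substrate of the S6 kinases, ran the other way from the stalk genes in δ-like cells. It had 1284 and 1389 CPM in Sst+ and 1025 and 1095 in Ppy+ cells, without overlap, but the difference of -0.33 ± 0.13 missed the threshold (edgeR, adjusted p = 0.0862). Rps4x, encoded on the X chromosome, had 2103 and 2012 CPM in Gcg+, 1268 and 1401 in Sst+, 1197 and 1266 in Ppy+, and 812 and 605 in Ins2+ cells.

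Among large subunit genes, Rpl5, which binds 5S rRNA, showed the largest difference between γ-like and α-like cells. It had 446 and 437 CPM in Ppy+ and 974 and 912 in Gcg+ cells, a log2 fold change of -1.09 ± 0.12 (edgeR, adjusted p = 5.65e-09), and 371 and 275 in Ins2+ and 386 and 437 in Sst+ cells. Rpl22, an RNA-binding protein of the large subunit, followed with 293 and 322 against 628 and 612 CPM (-1.01 ± 0.13, edgeR, adjusted p = 6.86e-08), and with 336 and 417 in Sst+ cells. Both genes stood apart in Gcg+ cells in both experiments. Rpl36a, on the X chromosome, was low in the β-like classes, as nearly all standard genes were. It had 451 and 304 CPM in Ins2+ and 484 and 424 in Ppy+Ins2+ cells, against 796 and 805 in Ppy+ and 753 and 753 in Sst+ cells. Ppy+ exceeded Ins2+ by 1.06 ± 0.13 (edgeR, adjusted p = 1.98e-08). Rpl7, with 1307 and 1251 CPM in Gcg+ and 425 and 346 in Ins2+ cells, had a log2 fold change of 1.71 ± 0.13 in that comparison (edgeR, adjusted p = 9.34e-14). Rpl13a had the largest difference between Ppy+ and Ins2+ cells (1.11 ± 0.16, edgeR, adjusted p = 3.12e-07). It was higher in experiment 2 in each of these classes, with 504 and 583 CPM in Ppy+, 603 and 1192 in Gcg+, 197 and 329 in Ins2+, and 279 and 545 in Sst+ cells.

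Rpl36al and Rps27l did not move with the standard genes in Gcg+ against Ins2+ cells, while other look-alikes followed them in some comparisons. Rpl36al, an autosomal paralog of Rpl36a on chromosome 12, had 567 and 644 CPM in Ppy+, 545 and 786 in Gcg+, 449 and 841 in Ins2+, and 381 and 616 in Sst+ cells. Its ranges overlapped, with Sst+ the lowest of these classes in each experiment. Gcg+ exceeded Sst+ cells by 0.43 ± 0.15 (edgeR, adjusted p = 0.0439), and Gcg+ and Ins2+ cells differed by 0.09 ± 0.14 (edgeR, adjusted p = 0.654), where Rpl36a differed by 1.61 ± 0.13. Rps27l, a paralog of Rps27 known as a target of p53, had 297 and 349 CPM in Ppy+, 363 and 339 in Gcg+, 335 and 269 in Ins2+, and 247 and 290 in Sst+ cells, and Gcg+ and Ins2+ differed by 0.18 ± 0.13 (edgeR, adjusted p = 0.344). Rps27 had 3578 and 3973 CPM in Gcg+, 1854 and 2005 in Ins2+, 2609 and 3159 in Ppy+, and 2676 and 3317 in Sst+ cells, and Gcg+ exceeded Ins2+ by 0.97 ± 0.12 (edgeR, adjusted p = 3.34e-08). Rpl7l1, a factor of large subunit assembly, was scarce, with 24.9 and 30.3 CPM in Ppy+, 19.7 and 25.5 in Gcg+, and 15.7 and 20.8 in Ins2+ cells. It was higher in Ppy+ than in Ins2+ cells (0.68 ± 0.20, edgeR, adjusted p = 0.00647), the direction of the standard genes. Unlike these, its Ppy+ values exceeded those of Gcg+ cells in each experiment. Rpl22l1 followed the standard genes, with a log2 fold change of -0.44 ± 0.11 in Ppy+ against Gcg+ cells (edgeR, adjusted p = 0.00383) and 1.11 ± 0.12 in Gcg+ against Ins2+ cells (edgeR, adjusted p = 8.62e-10). Rps27rt also followed their direction, with 447 and 1587 CPM in Gcg+, 405 and 806 in Ppy+, and 228 and 789 in Ins2+ cells. Its values differed strongly between the experiments. A difference between the partners in a pair was not tested on the scale of all UMIs.

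To see how genes differed from the common movement, each was also tested with the sum of the ribosomal protein genes as library size. Relative to that sum, calls were made by adjusted p alone. In Ppy+ against Gcg+ cells 12 genes were higher and 9 lower, and in Ppy+ against Ins2+ cells 18 and 13. They were 4 and 5 in Ppy+ against Sst+, and 18 and 14 in Gcg+ against Ins2+ cells. In Gcg+ against Sst+ cells they were 15 and 11, and in Ins2+ against Sst+ cells 12 and 15. Over all 10055 genes tested, the same scaling gave 5435 higher and 338 lower in Ppy+ against Gcg+ cells. The other comparisons, in the order above, gave 686 and 4341, 417 and 909, 324 and 7538, 228 and 3913, and 1959 and 539. Rplp1 took 86.1 and 93.4 of every 10000 ribosomal protein UMIs in Sst+ cells, 120 and 132 in Ppy+, 159 and 165 in Gcg+, and 178 and 195 in Ins2+ cells. The 4 classes did not overlap, and Ins2+ exceeded Sst+ by 1.05 ± 0.10 (log2, edgeR relative to the sum, adjusted p = 2.33e-09). Rplp0 took 70.9 and 76.5 in Sst+ cells, against 109 and 108 in Ppy+ and 99.1 and 110 in Gcg+ cells, and exceeded the sum in Ppy+ against Sst+ cells by 0.56 ± 0.11 (edgeR, adjusted p = 0.000272). Rpl29, known for binding heparin, was also relatively higher in Ppy+ than in Sst+ cells (0.55 ± 0.12, edgeR, adjusted p = 0.000953), and Rps6 was relatively lower (-0.48 ± 0.11, edgeR, adjusted p = 0.00256). Rpl36a took 58.8 and 45.3 in Ins2+ cells and 73.2 and 68.5 in Gcg+ cells (0.43 ± 0.11 relative to the sum, edgeR, adjusted p = 0.000986). Rpl36al took 58.5 and 125 in Ins2+ and 32.9 and 47.6 in Gcg+ cells (-1.12 ± 0.15, edgeR, adjusted p = 1.63e-07). The relative share of Rpl36a was thus lower, and that of Rpl36al higher, in β-like than in α-like cells. Rpl36al was also higher in experiment 2 than in experiment 1, by more in Gcg+, Ins2+ and Sst+ cells than in the classes with Ppy.

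**Figure D4:**
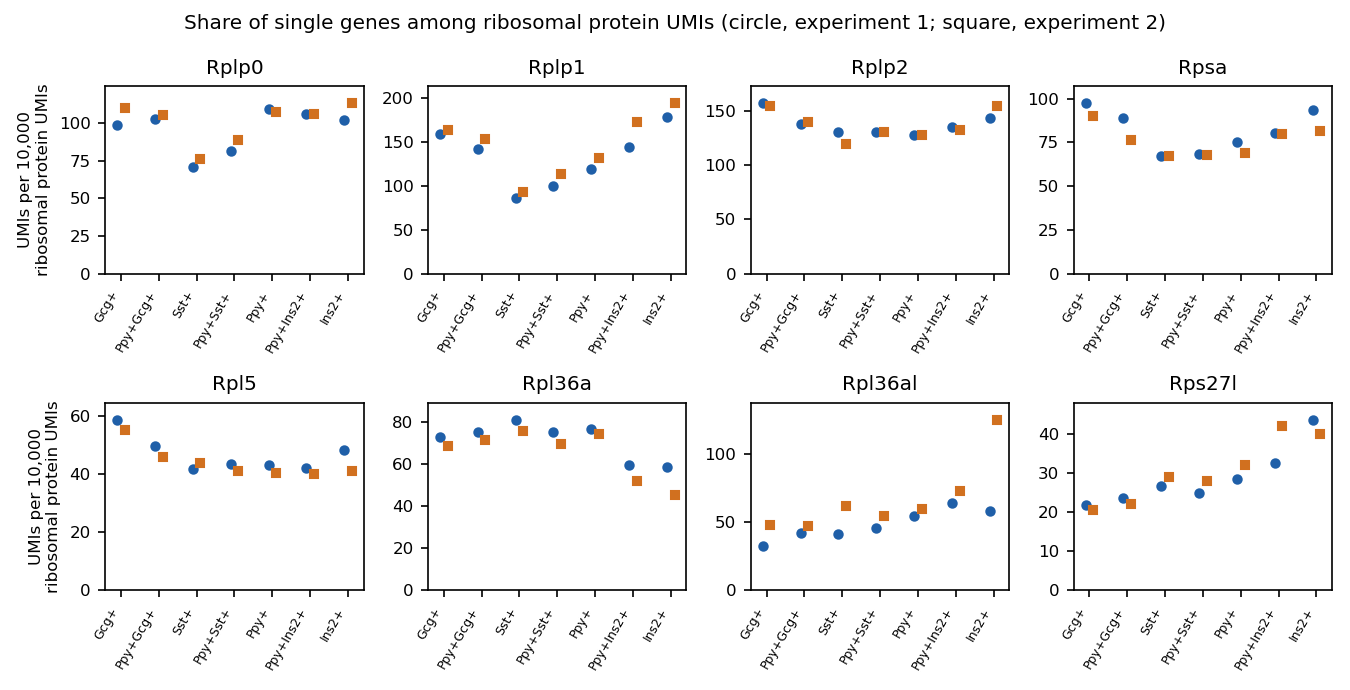
UMIs of 8 single genes per 10000 ribosomal protein UMIs in each hormone class; circles are experiment 1 and squares experiment 2, each panel with its own axis from 0. Rplp1 is lowest in Sst+ cells (86.1 and 93.4) and highest in Ins2+ cells (178 and 195), and Rpl36a is lowest in Ins2+ cells (58.8 and 45.3).

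Cells with Ppy and a second hormone gene were compared with Ppy+ cells. These classes may include mixed droplets that doublet removal missed, and cells that otherwise resemble α-, β- or δ-cells. The part of such cells in values that lie between those of other classes was not tested. In Ppy+Gcg+ against Ppy+ cells, edgeR called 0 of 83 genes under both thresholds (1.92% of all genes were called higher) and 50 higher by adjusted p alone (3.02%), with a median of 0.42. At an unadjusted p under 0.05, 73 were higher, and DESeq2 called 0 and 57. Rps24, which is mutated in some forms of Diamond-Blackfan anaemia, had 2426 and 2435 CPM in Ppy+Gcg+ cells, between 1536 and 1598 in Ppy+ and 3086 and 3076 in Gcg+ cells. The 3 classes were separate, and Ppy+Gcg+ exceeded Ppy+ cells by 0.63 ± 0.12 (edgeR, adjusted p = 0.000408). Rplp1 and Rpsa were higher by 0.63 ± 0.12 and 0.59 ± 0.12 (edgeR, adjusted p = 0.000409 and 0.00124). Without the experiment as a block, the count by adjusted p alone was 1 in place of 50, with the median at 0.41. With each library as a block it was 59, with a median of 0.50.

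In Ppy+Ins2+ against Ppy+ cells 1 gene, Rpl36a, was lower under both thresholds (2.58% of all genes), by 0.82 on the log2 scale (-0.82 ± 0.14, edgeR, adjusted p = 4.74e-05). By adjusted p alone 43 were lower (3.77% of all genes), with a median of -0.39, and 13 were without the block. Rpl7 fell by 0.71 (-0.71 ± 0.13, edgeR, adjusted p = 0.00024), from 686 and 750 CPM to 440 and 435. Rpl8, which lies near the peptidyl transferase centre, fell by 0.63 (-0.63 ± 0.13, edgeR, adjusted p = 0.00101), from 1037 and 1166 to 655 and 777. In Ppy+Sst+ against Ppy+ cells edgeR called 0 under both thresholds (2.51% of all genes were called lower). By adjusted p alone 3 were lower, 3.61% of those tested against 4.61% of all genes, so the count does not set the ribosomal protein genes apart. At an unadjusted p under 0.05, 17 were lower, while DESeq2 called 0 and 5. The 3 called by edgeR were Rplp0 (-0.46 ± 0.12, edgeR, adjusted p = 0.00613), Rps26 (-0.45 ± 0.11, adjusted p = 0.0063) and Rpl29 (-0.41 ± 0.12, adjusted p = 0.0174). All 3 were also higher in Ppy+ than in Sst+ cells by adjusted p. Rps26, which sits at the mRNA exit channel, had 937 and 858 CPM in Ppy+, 681 and 632 in Ppy+Sst+, and 664 and 641 in Sst+ cells. These comparisons share the Ppy+ cells.

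In bulk RNA-seq the genes were lower in γ than in δ libraries. They took 0.807, 0.723, 0.860, 0.738 and 0.679% of counted reads in γ libraries 1 to 5 (0.761% ± 0.0719, n = 5) and 1.61, 1.46 and 1.34% in δ libraries 1 to 3 (1.47% ± 0.133, n = 3). The groups did not overlap. Over reads outside the hormone genes the shares were 1.04% ± 0.0959 and 1.68% ± 0.120. These shares are not comparable with those of UMIs, since bulk reads come from along the whole mRNA and UMIs from its end. In bulk, fewer cells of a type and less RNA per cell cannot be told apart. The γ libraries were sequenced from paired ends (14633838 to 31784878 counted reads) and the δ libraries from single ends on another instrument (7641916 to 11773598), so cell type, instrument and read layout cannot be told apart.

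Of 88 genes tested with edgeR over 17926 genes, 22 were lower and 1 higher in γ with at least a 2-fold difference and an adjusted p that did not exceed 0.05, where 14.2% and 20.7% of all genes were called lower and higher. By adjusted p alone 60 were lower (25.2% of all genes) and 4 higher (27.9%). The share lower under both thresholds, 22 of 88, lay above that of all genes, and the share higher lay below it. The median log2 fold change was -0.51, against -0.055 over all genes. In CPM, every γ library lay below every δ library for 71 genes (34.9% of all genes) and above for 3 (22.6%). Upper-quartile scaling moved the median of all genes to -0.35 and that of the ribosomal protein genes to -0.81. In single cells the median of Ppy+ against Sst+ on the TMM scale was 0.16, with the opposite sign. The shares of all UMIs went in the bulk direction, with 8.998% in Ppy+ against 14.6% in Sst+ cells. Outside the hormone genes they were 19.1% and 19.9%, with overlapping ranges. The bulk γ cells were not sorted by other hormones: Gcg reached 43968 to 83707 CPM and Sst 7119 to 11511 CPM in γ libraries, and Ppy 10889 to 16501 CPM in δ libraries.

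Rpl35 and Rpl23a, which lie around the exit tunnel of the nascent chain, showed the largest differences among standard genes. Rpl35 had 16.4, 14.4, 20.5, 21.7 and 20.4 TMM-scaled CPM in γ and 82.2, 70.1 and 65.1 in δ libraries, a log2 fold change of -1.96 ± 0.15 (edgeR, adjusted p = 2.15e-06). Rpl23a had 5.36, 4.41, 5.11, 4.39 and 5.73 in γ and 17.7, 18.4 and 17.2 in δ (-1.83 ± 0.19, edgeR, adjusted p = 1.7e-05). In neither gene did the groups come near each other. In single cells Rpl35 went the other way, with 1200 and 1245 TMM-scaled CPM in Ppy+ and 902 and 1000 in Sst+ cells. Rpl23a had 1319 and 1430 in Ppy+ and 1177 and 1370 in Sst+ cells, higher in Ppy+ in each experiment. Rpl23a was thus scarce in bulk but not in single cells, and the cause was not tested. Rpl13a, Rpl3, which reaches the peptidyl transferase centre, and Rps6 were also lower in bulk γ libraries, with -1.48 ± 0.13, -1.30 ± 0.15 and -1.25 ± 0.11. Between Ppy+ and Sst+ single cells, Rpl13a was higher in Ppy+ in each experiment, Rps6 was lower, and Rpl3 had no common order. The stalk was uneven: Rplp2 was lower (-0.69 ± 0.10, edgeR, adjusted p = 0.000175) with 74.5 to 89.1 CPM in γ and 122 to 144 in δ, while Rplp0 had 236 to 291 in γ and 252 to 312 in δ, and its -0.16 ± 0.12 missed the threshold (edgeR, adjusted p = 0.259). Per kilobase of exon, the 4 genes with the highest level in γ were Rpl36, with a mean of 227 CPM in γ and 391 in δ, Rpl41, the smallest ribosomal protein, with 201 and 535, Rps3a1 with 193 and 377, and Rpl4 with 176 and 491.

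The 4 genes that were higher in γ by adjusted p were Rps3a3, Rps2, Rpl36al and Rpl18. Rps2, at the mRNA entry side of the small subunit, had 134, 165, 140, 142 and 152 CPM in γ and 81.1, 89.5 and 93.5 in δ (0.73 ± 0.11, edgeR, adjusted p = 0.000189). Rpl36al had 87.4, 75.8, 88.04, 83.4 and 85.6 in γ and 49.0, 58.4 and 49.0 in δ (0.69 ± 0.10, edgeR, adjusted p = 0.000237), while its partner Rpl36a had 28.9 to 38.4 in γ and 64.3 to 69.6 in δ (-1.03 ± 0.12, edgeR, adjusted p = 3.31e-05). In both genes of the pair the groups were separate, in opposite directions. In single cells Rpl36a was not lower in Ppy+ cells, with 796 and 805 CPM against 753 and 753 in Sst+ cells. Rpl36al was higher in Ppy+ than in Sst+ cells in each experiment, as in bulk. Rpl18 had 126 to 139 in γ and 96.5 to 111 in δ (0.34 ± 0.09, edgeR, adjusted p = 0.0101). Rps3a3 is a processed pseudogene on chromosome 13 (GRCm38, 108670603 to 108671397), with 2.83 to 3.72 CPM in γ and 0.23, 0.16 and 0.65 in δ (3.19 ± 0.55, edgeR, adjusted p = 0.000725). Rps27rt, a copy of Rps27 on chromosome 9, was the most different in the other direction, with 0.30 to 0.72 CPM in γ and 4.07, 3.19 and 3.90 in δ (-2.76 ± 0.44, edgeR, adjusted p = 0.000386).

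**Figure D5:**
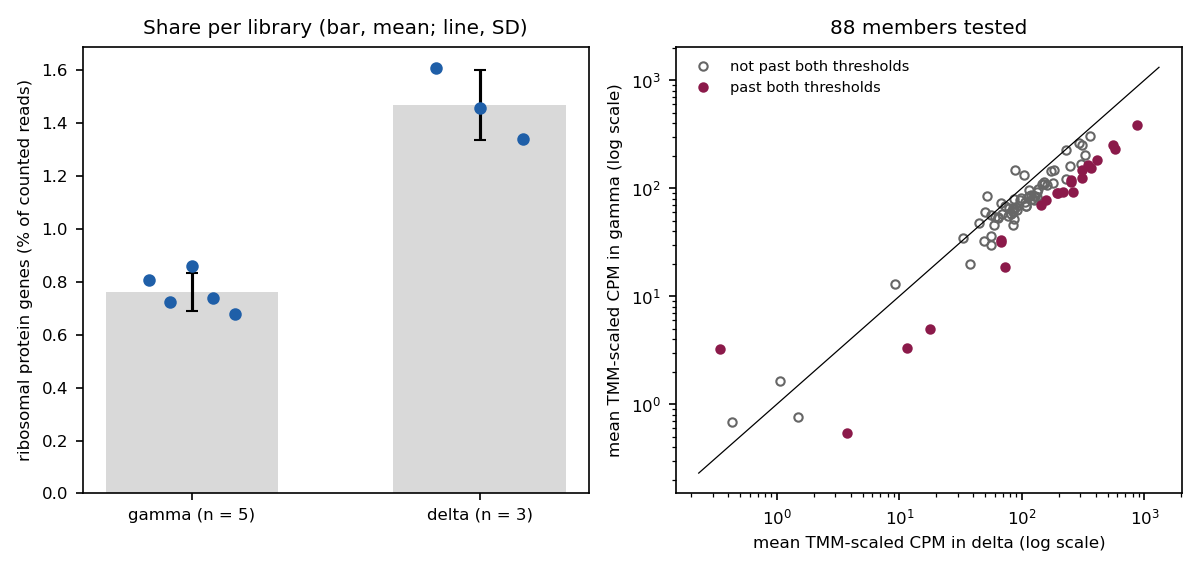
Left, share of counted reads from ribosomal protein genes in each bulk library (points), with the mean (bar) and SD (line): 0.761% ± 0.0719 in γ (n = 5) and 1.47% ± 0.133 in δ (n = 3). Right, mean TMM-scaled CPM of the 88 genes tested in γ against δ on log axes, filled where both thresholds were passed; 22 filled points lie below the line of equality and 1, Rps3a3, above it.

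Near-identical copies make the counts of several of these genes uncertain. Transcripts of 86 genes were cut into windows of 100 bases at every position, and at least 1 window of 79 genes matched the genome exactly elsewhere, with a median of 39.3% of windows. The share was over 50% for 32 genes, 99.6% for Rps27, 76.0% for Rps27rt, 93.9% for Rpl23a and 91.7% for Rpl36a, and 31.9% for Rpl35 and 18.3% for Rpl36al. Within the last 400 bases, nearer to where UMIs are read, it was 100.0% for Rpl36a, 74.1% for Rpl35 and 61.8% for Rpl36al. Reads from such windows have more than one place in the genome, and what paired or single ends made of them was not tested. The median bulk log2 fold change was -0.33 over the tested genes with no window elsewhere (6 tested), -0.51 over those with up to 50% (46 tested) and -0.55 over those with more (32 tested). The median of all genes was -0.055. By adjusted p alone, 3, 34 and 22 genes of these groups were lower and 0, 2 and 1 higher. The part of copies in the bulk difference was not tested. In single cells the same groups had medians of -0.73, -0.67 and -0.61 in Ppy+ against Gcg+ cells.

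Acinar enzyme genes moved with the bulk groups. A list of 18 such genes summed to 2782 to 15851 CPM in γ and to 128589, 112661 and 31015 CPM in δ libraries 1, 2 and 3. A list of 18 ductal genes summed to 2060 to 2424 CPM in γ and 3974 to 5679 CPM in δ. With δ 3 alone against the γ libraries, 12 genes were lower and 1 higher under both thresholds, with a median log2 fold change of -0.37. The part of these cells in the difference between γ and δ was not tested.

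The rest of the translation machinery was read from lists chosen by function. In Ppy+ against Gcg+ cells, where 9.94% of all genes were lower by adjusted p, 4 of 7 elongation factors were lower, with a median log2 fold change of -0.75. Eef1a1, which brings aminoacyl-tRNA to the ribosome, differed by -0.87 ± 0.13 (edgeR, adjusted p = 1.59e-06), and Eef2, which moves the ribosome along, by -0.82 ± 0.12 (edgeR, adjusted p = 1.54e-06). Of 7 other mRNAs known to carry a TOP tract, all 7 were lower (median -0.82), led by Tpt1 (-1.23 ± 0.12, edgeR, adjusted p = 1.84e-10); Eef1a1 and Eef2 are on both lists. Of the ribosomal proteins under other names, Rack1 differed by -0.97 ± 0.12 (edgeR, adjusted p = 1.02e-07) and Fau by -0.60 ± 0.12 (edgeR, adjusted p = 0.000184). Initiation factors were mixed, with 13 of 29 lower and 1 higher (median -0.30), and of 25 ribosome biogenesis genes 6 were lower (median -0.23). Mitochondrial ribosomal proteins, which build the separate ribosome of mitochondria, had 1 of 76 lower and a median of 0.06.

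In other comparisons the lists gave the following. In Gcg+ against Ins2+ cells, where 14.7% of all genes were higher by adjusted p, 6 of 7 elongation factors were higher (median 1.33), as were 6 of 7 other TOP mRNAs (median 1.17), while 9 of 29 initiation factors (median 0.18), 9 of 25 biogenesis genes (median 0.34) and 8 of 76 mitochondrial ribosomal proteins (median 0.18) were higher and 2, 1 and 4 lower. In Ppy+Gcg+ against Ppy+ cells, with 3.02% of all genes higher, 3 of 7 elongation factors and 4 of 7 other TOP mRNAs were higher. The median of the 76 mitochondrial ribosomal proteins there was -0.08. In bulk γ against δ, where 25.2% of all genes were lower and 27.9% higher, 4 of 7 elongation factors were lower and 1 was higher (median -0.60), and of 78 mitochondrial ribosomal proteins 30 were lower and 11 higher (median -0.21). In Ppy+ against Ins2+ cells 18.4% of all genes were higher and 19.6% lower. There 6 of 7 elongation factors were higher (median 0.57), and of 7 other TOP mRNAs 4 were higher and 2 lower (median 0.45). Of 13 regulators of ribosomal protein mRNA translation, 7 were lower and 1 higher there (median -0.52). In Ppy+ against Gcg+ cells 6 of these 13 were lower and 1 higher (median -0.44). No test of the lists as sets was run.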

How the data were processed

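The deposited single-cell matrices hold UMI counts per gene and cell that the authors made with Cell Ranger (mm10, Ensembl annotation with YFP and rtTA added), and the deposited bulk table holds read counts per gene from STAR 2.7.2b and HTSeq 0.9.1 on GRCm38.p6. Of the bulk table, 6 columns matched no sample of the labels and were not used. No cell had under 1000 UMIs, and mitochondrial UMIs stayed below 7% in every cell. Scrublet called only 8 of 5982 cells (0.134%), and why was not tested. A nearest-neighbour rule on simulated doublets, which calls a fixed share of cells, removed 120 more. These were 53 and 34 in the YFP+ and 3 and 30 in the YFP- libraries of experiments 1 and 2. A further 1459 cells were removed in 6 clusters led by non-endocrine markers. Cells were classed by thresholds on Ppy, Gcg, Ins2 and Sst in Seurat 5.3.0, and UMIs were summed per class and experiment (14 sums). The libraries without a number in their labels are called experiment 1. Tests were edgeR 4.0.16 (glmQLFit, glmQLFTest, TMM, Benjamini-Hochberg over all genes tested), with the experiment as a block in single cells, as the study regressed it out, and a mean of at least 5 counts in bulk. The code was tested on simulated data. Deviations of the 2 experiments correlated across classes in all 21 pairs (0.096 to 0.448). Alternatives were DESeq2 1.42.0, other scalings, filters, blocks, thinned cells and left-out libraries. The named genes were, per comparison, the 3 largest changes in each direction at an adjusted p of at most 0.05, the paralogs with their partners, the stalk genes and Rpsa, and up to 4 examples. Rps6, Rpl18, Rpl36, Rpl4 and Rpl41 were added after their values were seen. The members and lists were chosen with earlier results of these data known. One gene of the lists is not reported here.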

Additional observations from a re-analysis of the deposited data

How the results depend on the processing

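The counts below are of ribosomal protein genes called in either direction. By adjusted p alone they were 77 in Ppy+ against Gcg+, 70 in Ppy+ against Ins2+, 11 in Ppy+ against Sst+, 49 in Ins2+ against Sst+, 50 in Ppy+Gcg+ against Ppy+, 3 in Ppy+Sst+ against Ppy+, 43 in Ppy+Ins2+ against Ppy+ and 64 in bulk. Unless another rule is named, all counts that follow are under both thresholds. The reported ones were 33 in Ppy+ against Gcg+, 25 in Ppy+ against Ins2+, 0 in Ppy+ against Sst+, 77 in Gcg+ against Ins2+, 56 in Gcg+ against Sst+, 12 in Ins2+ against Sst+, 0 in Ppy+Gcg+ against Ppy+, 1 in Ppy+Ins2+ against Ppy+ and 23 in bulk. With the ribosomal protein sum as library size, which takes out the common movement by construction, they were 2 in Ppy+ against Gcg+, 0 in Ppy+ against Ins2+, 5 in Gcg+ against Ins2+, 2 in Gcg+ against Sst+, 2 in Ins2+ against Sst+, 1 in Ppy+Gcg+ against Ppy+, 0 in Ppy+Ins2+ against Ppy+ and 10 in bulk. Without a count filter they were 2 in Ppy+ against Sst+ and 2 in Ppy+Ins2+ against Ppy+. With cells thinned to 1000 UMIs they were 2 in Ppy+ against Sst+, 20 in Ins2+ against Sst+, 5 in Ppy+Gcg+ against Ppy+ and 10 in Ppy+Ins2+ against Ppy+. The cause of these differences was not tested. In bulk the count was 46 at an adjusted p of at most 0.05 with a log2 change of 0.5 or more in size, 13 with δ 3 alone, an alternative chosen after seeing the data, and 19 to 24 when 1 library at a time was left out.

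With each library as a block the counts were 2 in Ppy+Gcg+ against Ppy+ and 2 in Ppy+Ins2+ against Ppy+. Without the experiment as a block, 34 of 96 values of single genes in single cells missed the threshold, and no count under both thresholds moved by over 1.5 times. By adjusted p alone, the counts without the block were 64 in Ppy+ against Gcg+ and 60 in Ppy+ against Ins2+, and for Ppy+ against Sst+ 4 in place of 11. Numbers of the bulk libraries did not pair them (correlations of -0.095, 0.068 and -0.274), and with the number as a replicate block 15 genes were lower and 1 higher.

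The share of ribosomal protein genes outside the hormone genes was 19.1% in Ppy+, 28.01% in Gcg+, 15.1% in Ins2+, 19.9% in Sst+, 25.3% in Ppy+Gcg+, 20.02% in Ppy+Sst+ and 16.8% in Ppy+Ins2+ cells, and 1.04% in γ and 1.68% in δ libraries. Outside mitochondrial genes it was 15.1% in Ppy+Gcg+ and 13.2% in Ppy+Sst+ cells. As a share of all UMIs, these classes had 14.3% and 12.6% in the YFP+ libraries alone and 17.4% and 14.5% in the YFP- libraries alone. Of all UMIs, leaving out 1 experiment at a time gave 8.81 to 9.18% in Ppy+, 17.99 to 19.1% in Gcg+, 3.91 to 4.32% in Ins2+, 13.3 to 15.9% in Sst+, 14.6 to 14.8% in Ppy+Gcg+, 12.79 to 12.82% in Ppy+Sst+ and 6.71 to 7.63% in Ppy+Ins2+ cells, and leaving out 1 library 0.737 to 0.782% in γ and 1.40 to 1.53% in δ. Counts of calls without 1 experiment were not run, since a single sum per class leaves no residual degrees of freedom.

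Of 114 tested values of named genes, 1571 alternative values were computed. The direction held in 1392, and with it the side of the threshold except for the 96 values from each single experiment, which carry no test. A further 147 missed the threshold, and 32 turned in sign, all with the ribosomal protein sum as library size. Relative to that sum, Ppy+ against Gcg+ gave log2 fold changes of 0.24 for Rpl10, 0.095 for Rpl36a, 0.20 for Rpl22l1, 0.25 for Rps27, 0.055 for Rplp0, 0.066 for Rps27rt and 0.29 for Rpl3. Ppy+ against Ins2+ gave -0.24 for Rpl39, -0.22 for Rplp2 and -0.14 for Rps27rt. Gcg+ against Ins2+ gave -0.63 for Rpl39, -0.10 for Rpl10, -0.093 for Rpl22l1, -0.24 for Rps27, -0.026 for Rpl22, -0.042 for Rplp0, -0.20 for Rplp1 and -0.20 for Rps27rt. Gcg+ against Sst+ gave -0.43 for Rpl39, -0.37 for Rpl10, -0.16 for Rps4x, -0.15 for Rpl36a, -0.27 for Rpl22l1, -0.055 for Rpl22, -0.020 for Rps19, -0.35 for Rpl36al and -0.42 for Rpl3. Bulk gave 0.37 for Rpl10, 0.080 for Rpl7, 0.029 for Rpl7l1, 0.25 for Rplp1 and 0.29 for Rps4x. Depth limits the smallest classes most, with 363398 UMIs behind Ppy+Ins2+ cells of experiment 2.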

Other observations

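Ribosomal protein genes took a larger share of all UMIs in most removed clusters than in the hormone classes other than Gcg+. In experiments 1 and 2 it was 24.6% and 24.4% in the cluster led by S100a8, S100a9 and Lyz2, genes of myeloid cells, 22.7% and 26.4% in that led by Dcn, Col3a1 and Gsn, genes of stromal cells, and 19.3% and 18.3% in that led by Fabp4, Hbb-bs and Rbp7. The cluster led by Jchain, Igkc and Igha, genes of plasma cells, had 16.7% and 28.3%, and that led by Spp1, Apoc1 and Tstd1 had 20.7% and 21.1%. The lowest share was in the cluster led by the acinar enzymes Ctrb1, Pnlip and Cpb1, with 8.59% and 12.3% over 24 and 8 cells. These clusters hold different mixes of depth, and no test was run on them. In the hormone classes, hormone genes took 23.0 to 74.9% of all UMIs, so shares over all UMIs are not on an equal footing. Outside the hormone genes, Gcg+ cells had 27.2% and 28.8%, and Ppy+Gcg+ cells 24.9% and 25.8%.

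One gene differed between the experiments in every class. Rps27rt, the copy of Rps27 on chromosome 9, was higher in experiment 2 in all 7 classes, with log2 differences of 0.77 to 1.83 and a median of 1.06, where the median absolute difference over the 83 genes was 0.067. It was the only one of the 83 above 0.5 in all 7. Of its transcript windows, 76.0% match the genome elsewhere, and 99.6% of those of Rps27. Rpl27 followed with a median of 0.45 (0.17 to 0.93). In Gcg+, Ins2+ and Sst+ cells, nearly all from YFP- libraries, the differences were 1.79 to 1.83 for Rps27rt, 0.76 to 0.93 for Rpl27, 0.73 to 0.98 for Rpl13a and 0.53 to 0.90 for Rpl36al. In the classes with Ppy they were 0.77 to 1.06, 0.17 to 0.45, 0.20 to 0.39 and 0.18 to 0.32. These differences were thus larger in the classes from YFP- libraries, which a block for the experiment does not take out. The cause was not tested.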
